A study of Mus musculus with 32 samples.

Results

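The genes described are 10 of the NF-κB system, 4 factors (Nfkb1, Nfkb2, Rela and Relb), 3 IκB proteins (Nfkbia, Nfkbib and Nfkbiz) and 3 regulators of the ubiquitin chains upstream of them (Tnfaip3, Tnip1 and Birc3). They were chosen by name, matched to the Ensembl identifiers of the tables through GENCODE M21, and all 10 were found among the 23035 genes of the footprint tables. Neural stem cells (NSCs) of the ventricular-subventricular zone of C57BL/6 mice, male and 8 to 12 weeks old, were grown ex vivo with FGF and EGF and given vehicle or interferon-β (IFN-β) for 2 h or 14 h. All 4 groups then received the elongation inhibitor cycloheximide for 5 min before lysis. Ribosome footprints and total RNA were sequenced from 4 cultures in each group, 32 libraries in all, and the labels number the cultures 2, 3, 5 and 6 for the short and 1 to 4 for the long exposure. Replicates are, by the methods of the study, separate mice or cultures made from separate mice, and how many animals went into a culture is not given in the sources used here. The model is a dividing culture outside its niche.

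NF-κB is a family of dimeric transcription factors that share a Rel homology domain. In resting cells IκB proteins hold the dimers in the cytoplasm, and signals from cytokine and pattern recognition receptors lead through ubiquitin chains and the IκB kinases to the release of dimers of p65 (Rela) with p50 (from Nfkb1), the canonical branch. In the non-canonical branch p100 (from Nfkb2) is processed to p52, the partner of RelB. Several members of the family, among them Nfkbia, Nfkb2, Relb, Tnfaip3, Tnip1 and Birc3, are themselves known targets of NF-κB, which makes feedback a known feature of the system.

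The promoters show which of these genes carry letters of a κB site close to their start. They are given in GRCm38.p6 from RefSeq, 250 bases before to 50 after each start, in the direction of the gene, with every match to the κB consensus on either strand in capitals. The table matched 7 of the 10 genes, and Nfkb1, Relb and Nfkbiz have no entry in it.
Nfkb2, chr19:46304487-46304786, plus strand: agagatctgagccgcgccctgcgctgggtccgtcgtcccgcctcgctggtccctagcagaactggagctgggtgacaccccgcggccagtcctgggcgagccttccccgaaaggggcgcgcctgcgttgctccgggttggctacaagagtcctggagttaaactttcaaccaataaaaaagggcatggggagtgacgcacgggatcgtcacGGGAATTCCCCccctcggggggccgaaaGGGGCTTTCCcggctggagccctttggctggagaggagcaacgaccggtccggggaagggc
Nfkb2, chr19:46305445-46305744, plus strand: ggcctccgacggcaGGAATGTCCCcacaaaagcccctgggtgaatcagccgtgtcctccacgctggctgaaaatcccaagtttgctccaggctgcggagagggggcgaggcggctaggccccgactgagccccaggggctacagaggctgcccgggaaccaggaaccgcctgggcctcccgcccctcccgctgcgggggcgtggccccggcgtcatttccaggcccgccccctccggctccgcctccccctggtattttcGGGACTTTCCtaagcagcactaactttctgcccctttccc
Nfkbia, chr12:55492598-55492897, minus strand: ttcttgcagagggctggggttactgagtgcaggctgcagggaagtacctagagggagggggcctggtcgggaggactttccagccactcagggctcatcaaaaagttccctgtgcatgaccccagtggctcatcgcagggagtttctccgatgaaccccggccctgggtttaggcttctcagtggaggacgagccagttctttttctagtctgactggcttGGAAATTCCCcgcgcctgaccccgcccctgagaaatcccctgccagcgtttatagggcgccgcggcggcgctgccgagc
Tnfaip3, chr10:19015361-19015660, minus strand: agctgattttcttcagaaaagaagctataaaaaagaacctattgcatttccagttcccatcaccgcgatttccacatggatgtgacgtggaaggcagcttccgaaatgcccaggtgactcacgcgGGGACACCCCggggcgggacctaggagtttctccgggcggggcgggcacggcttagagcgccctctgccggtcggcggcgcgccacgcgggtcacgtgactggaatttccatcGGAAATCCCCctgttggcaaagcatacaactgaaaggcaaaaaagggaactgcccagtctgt
Tnip1, chr11:54962891-54963190, minus strand: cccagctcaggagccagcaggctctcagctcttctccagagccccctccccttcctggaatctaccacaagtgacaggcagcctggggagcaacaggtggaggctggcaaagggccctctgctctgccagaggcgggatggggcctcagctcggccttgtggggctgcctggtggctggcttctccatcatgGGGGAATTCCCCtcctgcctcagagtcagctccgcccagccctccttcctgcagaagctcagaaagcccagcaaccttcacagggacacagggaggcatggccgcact
Rela, chr19:5637291-5637590, plus strand: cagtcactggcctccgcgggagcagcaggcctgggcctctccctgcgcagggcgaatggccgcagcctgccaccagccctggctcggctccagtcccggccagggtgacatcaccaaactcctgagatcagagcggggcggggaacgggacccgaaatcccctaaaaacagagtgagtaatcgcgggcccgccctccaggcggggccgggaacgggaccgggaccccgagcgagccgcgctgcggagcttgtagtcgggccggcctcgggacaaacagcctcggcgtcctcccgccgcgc

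Matches were found in 4 of the 7 genes (Nfkb2, Nfkbia, Tnfaip3 and Tnip1) and in 9.55% of the 27025 genes with a promoter in the table. Nfkb2, which encodes p100, had a match at each of its 3 annotated starts. The match at positions 11 to 20 of its second start is the same site of the genome as that at -225 to -216 of the third. In Tnip1 overlapping matches formed 1 palindromic run from -58 to -47, and in Nfkbia, which encodes IκBα, the match lay at -29 to -20 on the reverse strand. Of the 2 annotated starts of Tnfaip3 the upstream one held matches at -125 to -116 and at -12 to -3, and the other held none. The promoters of Rela, Nfkbib and Birc3 held no match. The same windows were searched for the interferon motifs ISRE (GAAANNGAAA) and GAS (TTCNNNGAA). GAS matched in 2 of the 7 genes, against 9.55% of all genes. These were Nfkb2 at -148 to -140 of its first start and Tnip1 at -199 to -191. ISRE matched in 0 of the 7, against 3.99% of all genes and 4 of 6 genes of the treatment check. A match describes letters in this window and is not a measured binding site.

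Footprint libraries held 2956297 to 10505108 counts (median 7295130) and total RNA libraries 1370008 to 7877753 (median 3364756.5). As a check of the treatment, the interferon-induced genes Ifit3 and Isg15 rose at both times, with a log2 fold change of 7.01 at 2 h and 12.55 at 14 h for Ifit3 and of 6.87 and 11.33 for Isg15 (adjusted p = 1.19e-06 and 6.04e-15, and 2.5e-07 and 6.41e-15). The 12 NSC markers summed to 10600 to 18100 CPM, with Nes between 1672 and 4104 CPM and Sox2 between 198.6 and 494.5. Others on that list were low. Prom1 was at 1.037 to 3.905 CPM, Hes5 at 0.7576 to 32.71, and Gfap at 0.1237 to 0.2848 in vehicle libraries at 14 h. The microglial markers Cx3cr1 and Aif1 had no footprint in any library, Tmem119 had at most 1 count, and the 10 microglial genes summed to 16.1 to 46.5 CPM. At 14 h that sum held mainly P2ry12, at 5.57 to 8.28 CPM in vehicle and 20.4 to 26.1 CPM in IFN-β libraries, and Itgam, which went the other way, at 29.4 to 35.6 and 17.5 to 20.7 CPM. The 6 endothelial genes summed to 10.8 to 23.8 CPM in vehicle and 18 to 41.3 CPM in IFN-β libraries at 2 h, higher with IFN-β in all 4 pairs, nearly all of it Flt1 and Kdr, while Pecam1 and Cldn5 had at most 1 count. Oligodendrocyte markers summed to 96.8 to 126 CPM in vehicle and 218 to 294 CPM in IFN-β libraries at 14 h, nearly all of it Cnp, with Mbp and Mog at or near 0. The 6 neuronal genes summed to 1090 to 1200 and 1450 to 1620 CPM in the same groups. Nearly all of that was Map2, at 1044 to 1141 and 1401 to 1556 CPM. Dcx, Rbfox3 and Syt1 had at most 14 counts in any library at 14 h. The part of these markers in the results was not tested. In total RNA, vehicle replicate 5 at 2 h and vehicle replicate 3 at 14 h stood apart, with a chi-square per degree of freedom of 701 to 854 and 416 to 486 against the other libraries of their group, beside 61.4 to 91.5 and 10.4 to 65.4 among those others.

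Levels are given as CPM, a gene's count relative to the size of its library, scaled by edgeR's TMM factors over the 16 footprint libraries, and levels of different genes are compared only per kb of coding sequence (CDS). In vehicle libraries at 14 h the order was Rela with 30.3 ± 2.01 CPM per kb (SD, n = 4), Nfkbia with 27.6 ± 1.25, Nfkbib with 19.7 ± 2.22, Nfkb1 with 17.4 ± 1.08, Nfkb2 with 15.3 ± 0.935, Tnip1 with 8.20 ± 0.625, Nfkbiz with 5.25 ± 1.00 and Relb with 4.61 ± 0.431. Tnfaip3 with 0.513 ± 0.320 and Birc3 with 0.320 ± 0.114 lay far below. Neighbours in this order whose libraries overlapped were Rela and Nfkbia, Nfkbib and Nfkb1, Nfkb1 and Nfkb2, Nfkbiz and Relb, and Tnfaip3 and Birc3. Rela stood at the 60.5th percentile of 12418 genes by density, Relb at the 19.5th, and Tnfaip3 and Birc3 at the 3.14th and 1.98th. In vehicle libraries at 2 h Nfkbia was at 49.3 ± 18.9 CPM per kb and Rela at 35.8 ± 1.83, and these again overlapped. The labels do not say whether cultures of the same number at both times are the same, and vehicle levels of both times are given side by side with no comparison.

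**Figure D1:**
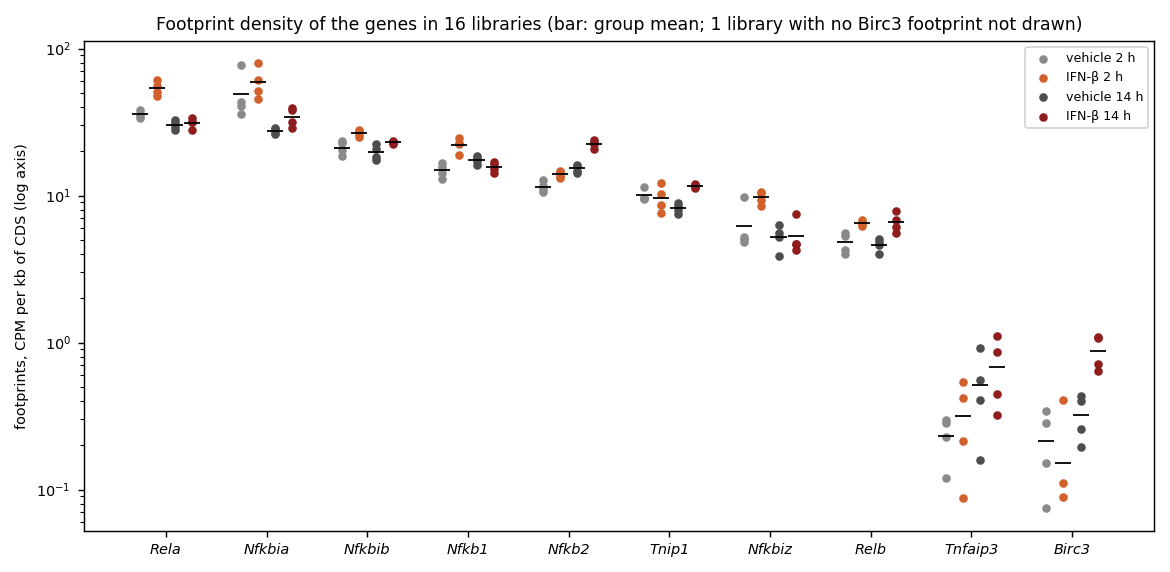
Footprint density (CPM per kb of CDS, log axis) of each gene in each library, by group, with a bar at the group mean. Tnfaip3 and Birc3 stay near or below 1 CPM per kb in all 4 groups, while Rela and Nfkbia lie between 26.3 and 79.8; 1 IFN-β library at 2 h without a Birc3 footprint is not drawn.

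At 2 h of IFN-β the footprints of both canonical subunits rose, Nfkb1 with a log2 fold change of 0.58 and Rela with 0.59, and no gene of the set was called lower, where 2.01% of all genes were. Both are among 8 genes of the set tested, and these 2 were called higher (adjusted p under 0.05 in edgeR's quasi-likelihood test over 12104 genes), where 5.25% of all genes tested were called higher. Footprint libraries with the same replicate number varied together, and with the replicate number as a block 7 of the 8 were called higher, against 15.9% of all genes. All 7 were higher in 4 of 4 cultures, which was not counted over all genes and is not separate from the block. In 5 of the 8 (Nfkb1, Nfkb2, Rela, Relb and Nfkbib) every IFN-β library lay above every vehicle library, which held for 7.68% of all genes tested. Tnfaip3 and Birc3 were below the minimum of 10 counts in at least 4 libraries and were not tested.

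At 14 h the genes called higher were the non-canonical pair and 2 inhibitors. Nfkb2 was 1.47-fold, Relb 1.42-fold, Tnip1 1.41-fold and Nfkbia 1.24-fold higher, while Rela differed by a log2 fold change of 0.03. These 4 of 9 genes tested were called higher, against 26.2% of 12113 genes, and none was called lower, against 26.3%. With the replicate block 5 were called higher, against 31.8% of all genes, and Nfkb1 was called lower, against 31.0%. IFN-β libraries lay wholly above vehicle libraries for 4 of the 9 (Nfkb2, Relb, Nfkbib and Tnip1), against 23.4% of all genes. Nfkb2, Relb and Nfkbib had been apart in this way at 2 h as well. With 9 genes and a background of this size, the counts at 14 h are not read as a property of the set.

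**Figure D2:**
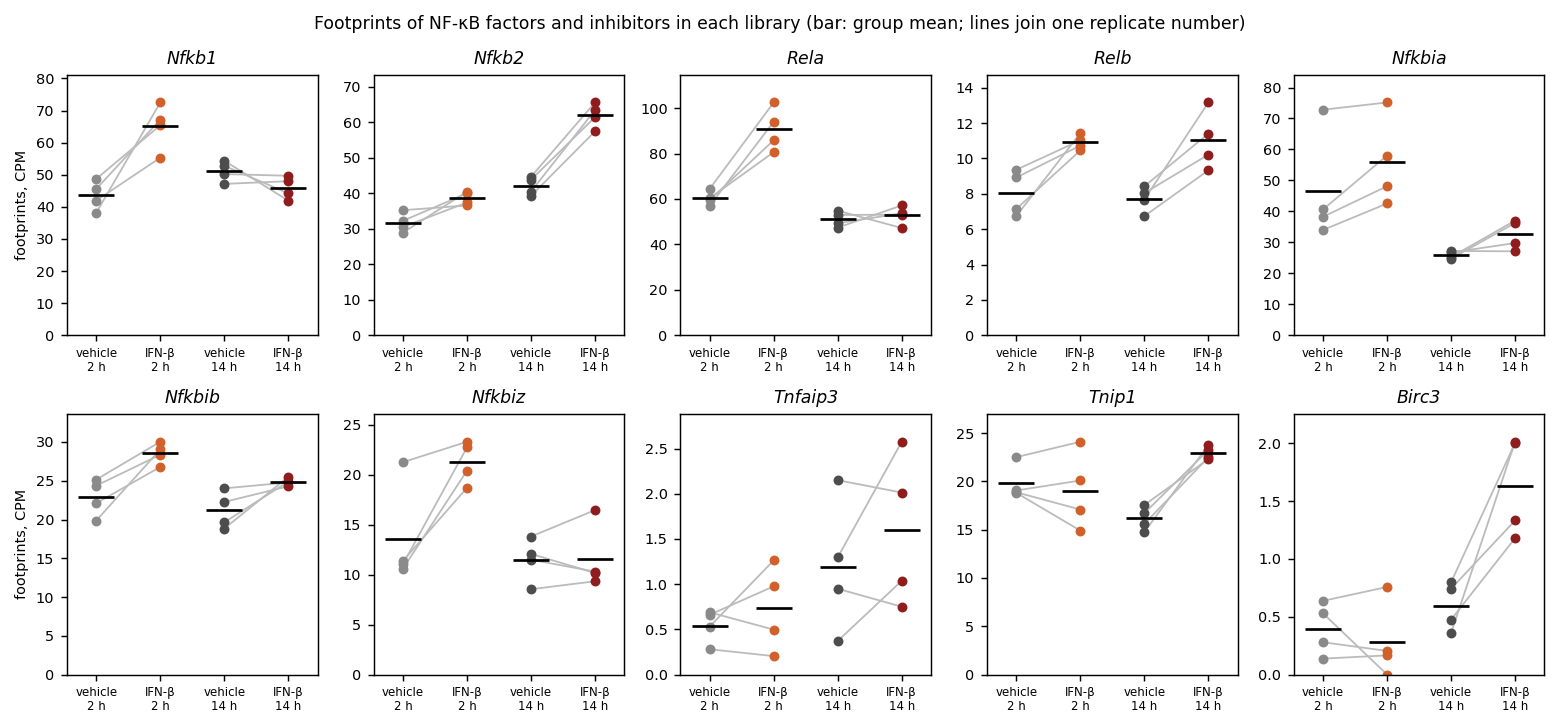
Footprints (CPM) of each gene in the 16 libraries, by group, with a bar at the group mean and lines joining libraries of the same replicate number. The IFN-β libraries of Nfkb1 and Rela lie above their vehicle libraries at 2 h and overlap them at 14 h, those of Tnip1 lie above them only at 14 h, and Nfkb2 and Relb are higher at both times.

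Nfkb1 encodes p105, the precursor of p50. In vehicle cultures at 2 h it was at 41.97 CPM in replicate 2, 38.16 in 3, 48.71 in 5 and 45.58 in 6, and with IFN-β it was at 55.31, 72.51, 65.42 and 67.16 in the same order. The groups did not overlap, and replicate 3 showed the largest gap between its vehicle and IFN-β library. The log2 fold change was 0.58 ± 0.11 (SE, adjusted p = 0.0109). At 14 h vehicle cultures 1 to 4 had 50.2, 54.35, 47.15 and 52.79 CPM and IFN-β cultures 49.68, 41.93, 47.99 and 44.19. The groups overlapped, 3 of 4 cultures were lower with IFN-β, and the log2 fold change of -0.18 was not called in the main test (adjusted p = 0.058). It was called with the replicate block (-0.18, adjusted p = 0.0197), and also without IFN-β replicate 1 or without vehicle replicate 3. The effect at 14 h was lower than that at 2 h by -0.74 ± 0.13 on the log2 scale (adjusted p = 6.47e-04), in the interaction of time and treatment.

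Rela encodes p65, the transactivating subunit. At 2 h vehicle cultures 2, 3, 5 and 6 had 59.51, 64.45, 60.36 and 57.01 CPM, and IFN-β cultures 85.86, 102.5, 80.62 and 94.02. All 4 IFN-β libraries lay above all vehicle libraries, with a log2 fold change of 0.59 ± 0.09 (adjusted p = 0.00353). At 14 h the values were 49.3, 54.85, 47.39 and 52.98 with vehicle and 53.71, 47.23, 57.17 and 53.1 with IFN-β. These groups overlapped throughout, and the interval of the log2 fold change ran from -0.13 to 0.20. The difference between the times was -0.54 ± 0.12 (adjusted p = 0.00267). Nfkb1 and Rela thus rose at 2 h and had a smaller effect at 14 h by a test of the difference itself.

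Nfkb2 encodes p100, which acts as an IκB protein until it is processed to p52. Vehicle cultures 2, 3, 5 and 6 at 2 h had 28.9, 30.48, 35.21 and 32.22 CPM and IFN-β cultures 40.41, 37.38, 36.54 and 39.96. The groups lay close to each other without overlap, and the log2 fold change of 0.29 was called with the replicate block (adjusted p = 0.00664) and not without it (adjusted p = 0.106). At 14 h vehicle cultures 1 to 4 had 39.26, 43.78, 40.46 and 44.62 CPM and IFN-β cultures 57.4, 61.4, 63.39 and 65.54. The lowest IFN-β library was well above the highest vehicle library, with a log2 fold change of 0.56 ± 0.07 (adjusted p = 1.63e-05). This was the smallest adjusted p among the 10 genes in any comparison of the main test. The effect at 14 h exceeded that at 2 h by 0.28 on the log2 scale with an adjusted p of 0.0617, and by 0.27 with 0.0162 under the replicate block. It was also called without IFN-β replicate 1 at 14 h or without vehicle replicate 2 at 2 h.

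Relb encodes the partner of p52. At 2 h it had 8.926, 9.366, 7.147 and 6.747 CPM in vehicle cultures 2, 3, 5 and 6, from 49 to 84 counts, and 10.73, 11.03, 10.46 and 11.44 with IFN-β. The groups did not overlap, and the log2 fold change of 0.44 was called with the replicate block (adjusted p = 0.0169) and not without it (adjusted p = 0.132). At 14 h vehicle cultures 1 to 4 had 8.427, 7.678, 8.043 and 6.741 CPM and IFN-β cultures 11.41, 13.17, 10.22 and 9.332. Again no library overlapped, with a log2 fold change of 0.51 ± 0.14 (adjusted p = 0.0087). The effects at both times differed by 0.08 with an interval from -0.34 to 0.50, so a larger or smaller effect at 14 h was not shown.

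**Figure D3:**
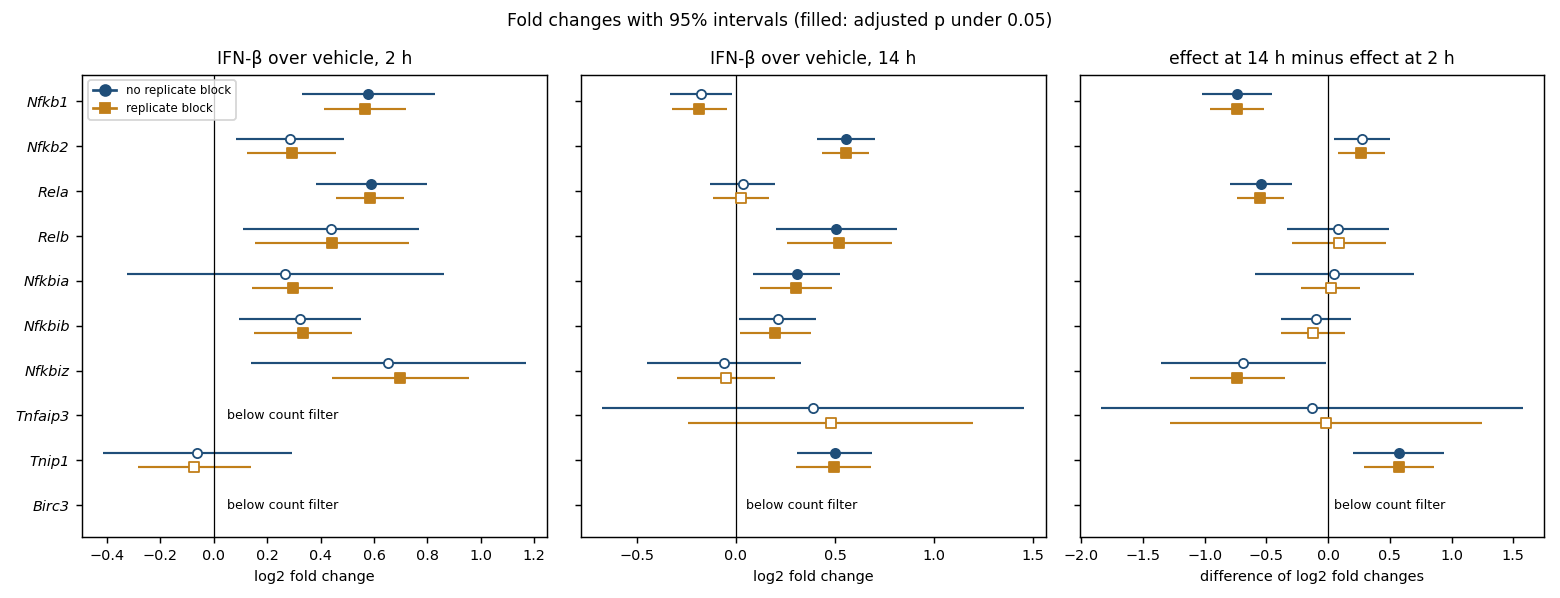
Log2 fold change of footprints with 95% interval for each gene at 2 h, at 14 h, and as the difference of both effects, without a replicate block (circles) and with it (squares), filled where the adjusted p is under 0.05. Nfkb1 and Rela are filled to the right at 2 h and to the left in the difference, Tnip1 is filled to the right at 14 h and in the difference, and genes below the count filter have no point.

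The factors were also set against each other per library, as footprint densities over the 5 genes of the Rel family, with c-Rel (Rel) added. These ratios were computed after the fold changes had been seen and were given no test. Nfkb2 over Nfkb1 was 0.876 ± 0.0376 (SD, n = 4) in vehicle and 1.44 ± 0.162 in IFN-β libraries at 14 h, with ranges of 0.832 to 0.913 and 1.23 to 1.58. At 2 h the order was the other way, 0.776 ± 0.0515 in vehicle and 0.639 ± 0.0990 in IFN-β libraries, and the ranges overlapped. Of the summed density of the 5 factors, Nfkb2 had 21.7% ± 0.874 in vehicle and 28.6% ± 1.86 in IFN-β libraries at 14 h, and Nfkb1 had 24.8% ± 0.356 and 19.9% ± 1.05. Rela was the main factor in every group, with 39.8% to 53.8% of the sum by group mean, and Rel had 3.32% to 3.78%.

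**Figure D4:**
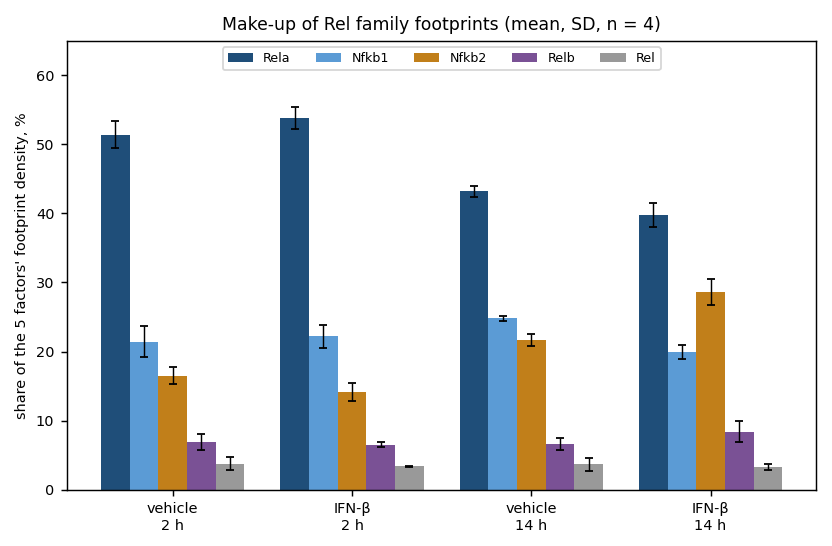
Share of each Rel family factor in the summed footprint density of the 5 genes (%, mean with SD over 4 libraries) in each group. Rela leads in all groups, and Nfkb2 passes Nfkb1 in the IFN-β libraries at 14 h (28.6% against 19.9%).

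Nfkbia encodes IκBα, the inhibitor that is resynthesised after each round of NF-κB activation. At 2 h vehicle cultures 2, 3, 5 and 6 had 34, 72.83, 38.25 and 40.62 CPM and IFN-β cultures 42.55, 75.17, 48.12 and 58.04. Replicate 3 was high in both arms, so the groups overlapped although every culture was higher with IFN-β. The log2 fold change was 0.27 ± 0.26 (adjusted p = 0.73) without the block and 0.29 ± 0.07 (adjusted p = 0.00274) with it. Without both libraries of replicate 3, a choice made after seeing the data, it was 0.40 ± 0.12 (adjusted p = 0.042). At 14 h the values were 24.74, 26.72, 27.22 and 25.25 CPM with vehicle and 36.25, 29.77, 27.1 and 37.01 with IFN-β, 1 of the 4 IFN-β libraries reaching down to the vehicle range. The log2 fold change of 0.31 ± 0.10 (adjusted p = 0.022) was no longer called without IFN-β replicate 1 (0.27, adjusted p = 0.0529) or without IFN-β replicate 4 (0.21, adjusted p = 0.0943).

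The pair of replicate 3 at 2 h stood apart in more than Nfkbia. Deviations of its vehicle library from the group mean, over all genes tested, correlated at 0.812 with those of its IFN-β library and at -0.616 to -0.307 with those of the other IFN-β libraries. Its summed microglial markers were the lowest at 2 h (16.1 and 21 CPM) and its oligodendrocyte markers the highest (493 and 375 CPM). The NSC marker Gfap was also highest in this pair, at 114.1 CPM with vehicle and 469.2 CPM with IFN-β. The lowest libraries of these groups had 0.6885 and 46.21 CPM. Their part in the results was not tested. Leaving out the pair raised the genes of the set called at 2 h from 2 to 4 (Nfkb1, Rela, Nfkbia and Nfkbiz).

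Nfkbib encodes IκBβ. At 2 h vehicle cultures 2, 3, 5 and 6 had 19.87, 25.16, 22.1 and 24.37 CPM and IFN-β cultures 29.04, 30.03, 26.78 and 28.36, without overlap. Its log2 fold change of 0.32 was called with the block (0.33, adjusted p = 0.00522) and not without it (adjusted p = 0.108). At 14 h the values were 18.83, 19.64, 22.27 and 24.02 CPM with vehicle and 25.51, 24.9, 24.29 and 24.78 with IFN-β, close to each other but still apart. The log2 fold change of 0.21 had an adjusted p of 0.0649, and of 0.0479 with the block.

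Nfkbiz encodes IκBζ, a nuclear member of the IκB family that acts on the transcription of a subset of NF-κB targets. At 2 h it had 11.05, 21.25, 11.38 and 10.6 CPM in vehicle cultures 2, 3, 5 and 6 and 22.73, 23.29, 18.69 and 20.4 with IFN-β. The vehicle library of replicate 3 was again the exception, at the level of the IFN-β libraries. With the block the log2 fold change was 0.70 ± 0.12 (1.62-fold, adjusted p = 7.3e-05), the largest of the genes tested, and without it 0.65 ± 0.23 (adjusted p = 0.154). It reached 0.95 (adjusted p = 0.00126) without the vehicle library of replicate 3 and 0.91 (adjusted p = 3.17e-04) without both libraries of that pair. At 14 h it had 13.81, 12.07, 8.538 and 11.49 CPM with vehicle and 16.45, 10.16, 9.331 and 10.3 with IFN-β, with 2 cultures higher and 2 lower. The difference between the times was -0.69 (adjusted p = 0.107), -0.74 with the block (adjusted p = 0.00157) and -0.96 without the pair of replicate 3 (adjusted p = 0.00297).

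Tnip1 encodes ABIN1, a ubiquitin-binding partner of A20. At 2 h vehicle cultures 2, 3, 5 and 6 had 18.81, 22.51, 19.06 and 18.87 CPM and IFN-β cultures 14.9, 24.1, 20.09 and 17.08, with 2 cultures higher and 2 lower. Its log2 fold change was -0.06 ± 0.16, the only negative one of the genes tested at this time. At 14 h it had 15.6, 14.76, 16.71 and 17.56 CPM with vehicle and 22.49, 23.76, 23.25 and 22.31 with IFN-β. The IFN-β libraries were tightly grouped above the vehicle libraries, with a log2 fold change of 0.50 ± 0.09 (adjusted p = 3.93e-04). The effect at 14 h exceeded that at 2 h by 0.57 ± 0.17 (adjusted p = 0.0211), the only positive difference between times called in the main test.

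Across both times the interaction thus called 3 of 9 genes tested, Tnip1 in the positive direction, against 15.4% of 12508 genes, and Nfkb1 and Rela in the negative direction, against 15.5%. With the replicate block Nfkb2 joined Tnip1, against 28.0% of all genes, and Nfkbiz joined Nfkb1 and Rela, against 27.5%. Each time has its own set of cultures, which cannot be told apart from time in these differences.

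Tnfaip3 encodes A20, the ubiquitin-editing enzyme that ends NF-κB signalling, and had few footprints in these cultures. It had 2 to 5 footprints per vehicle library and 1 to 10 per IFN-β library at 2 h, and 3 to 13 and 6 to 18 at 14 h. The summed ratio of IFN-β over vehicle was 1.49 at 2 h (95% counting interval 0.749 to 3.01, from 21 and 17 counts) and 1.31 at 14 h (0.816 to 2.12, from 38 and 38 counts), where the intervals cover counting error only. At 14 h the log2 fold change was 0.39 ± 0.49 (adjusted p = 0.527), so a change of its footprints was not detectable at this depth.

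Birc3 encodes cIAP2, a ubiquitin ligase at the TNF receptors. At 2 h it had 1 to 6 counts per vehicle library and 0 to 6 with IFN-β, 13 and 8 in all, a ratio of 0.742 (95% counting interval 0.267 to 1.93). At 14 h it had 2, 8, 6 and 5 counts in vehicle cultures 1 to 4 and 6, 14, 9 and 11 with IFN-β, although each vehicle library had the larger total of its pair. In CPM all 4 IFN-β libraries (1.18 to 2.01) lay above all vehicle libraries (0.359 to 0.798), a ratio of 2.50 (1.44 to 4.47). Only without the count filter was it tested, with a log2 fold change of 1.30 ± 0.40 and an adjusted p of 0.0105. Its level stayed under that of any other gene of the set but Tnfaip3.

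The rest of the pathway was described through 6 lists with 76 genes, counted beside all genes tested. At 2 h 17 of the 56 tested were called higher and none lower, at a median of 0.24 on the log2 scale beside -0.02 over all genes. At 14 h 30 of 53 were called higher and 3 lower, at a median of 0.31 beside 0.00. Called shares in all genes were those given above for the same comparisons. With the replicate block the counts at 2 h were 25 higher and 2 lower, and at 14 h 32 and 3.

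Of 10 receptors 7 were tested at 2 h and 4 rose, among them Il1r1 (the interleukin-1 receptor, log2 fold change 2.79), Tlr3 (the endosomal sensor of double-stranded RNA, 2.11) and Tnfrsf1a (TNF receptor 1, 1.28). At 14 h 5 were tested, 4 rose and 1 fell. Tlr3 reached 3.86, Tlr4 0.61 and Tnfrsf1a 0.60, while Tnfrsf12a, the TWEAK receptor, was lower by -0.80. At 2 h Tnfrsf12a was at 1.00 (adjusted p = 0.0522, and 1.1e-12 with the replicate block), and the difference between the times was -1.78 (adjusted p = 3.28e-04). Il1r1 was below the count filter at 14 h, with 0 to 4 counts per IFN-β library and 8 to 17 per vehicle library.

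Of 15 adaptors and ubiquitin ligases 14 were tested at each time, and 4 rose at 2 h and 11 at 14 h. Myd88, the adaptor of Toll-like and interleukin-1 receptors, rose at 2 h (2.25) and at 14 h (3.00), as did Rnf31, which encodes the linear ubiquitin ligase HOIP (1.93 and 1.74). Ripk1, the kinase scaffold of the TNF receptor complex, rose by 1.31 at 2 h, and Tradd, its partner there, by 0.71 at 14 h. The list of kinases and their subunits joins the IκB kinases with NIK (Map3k14) and TAK1 (Map3k7) and its partners, and 9 of its 10 genes were tested, with a median of 0.02 at 2 h and 0.18 at 14 h. At 2 h 1 rose, Tbk1 (0.35). At 14 h 3 rose, Tbk1 (0.35), Ikbkg (0.33) and Ikbkb (0.31), and Chuk, which encodes IKKα, was at 0.18 (adjusted p = 0.0782, and 0.00634 with the replicate block).

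Among 4 further factors and IκB proteins 1 was called at each time, and both were picked out after their values had been seen because their mean counts were low. Bcl3, an atypical IκB protein that binds p50 and p52, had 22 to 52 counts in each IFN-β library at 2 h and 0 to 2 in each vehicle library, 144 against 3 in all, a ratio of 57.9 (95% counting interval 19.4 to 284). At 14 h it had 1 count in all in either group. Nfkbie, which encodes IκBε, rose at 14 h by 0.82 ± 0.29 (adjusted p = 0.0312).

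Of 13 negative regulators 10 were tested at each time. At 2 h 2 rose, Tnip2, which encodes ABIN2 (1.57), and N4bp1 (1.00). At 14 h 4 rose, among them the deubiquitinase Cyld (0.52), N4bp1 (0.48) and Tax1bp1, an adaptor of A20 (0.41), and Nkrf, a repressor of NF-κB target genes, was lower by -0.53. Of 24 target genes 13 were tested at each time, and 5 rose at 2 h and 7 at 14 h, when Sod2 was lower by -0.33. Among called targets with a mean of at least 50 footprints per library, the largest positive changes were those of Cxcl10 (6.90), Irf1 (3.59) and Ccl2 (2.69) at 2 h and of Cxcl10 (9.36), Vcam1 (3.02) and Irf1 (2.78) at 14 h. Below that mean, and picked out after its values had been seen, the chemokine gene Ccl7 rose by 3.79 at 2 h (adjusted p = 1.45e-05). Cxcl10 and Irf1 are also well known interferon-induced genes. Of the 11 targets below the count filter at 2 h, Tnf, Il1b and Cxcl2 were at 0 in every footprint library and Il6, Ccl5 and Cxcl1 at no more than 1 count, while Icam1 had 8 to 16 counts per IFN-β and 1 to 5 per vehicle library and Nos2 5 to 14 and 0 to 2.

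**Figure D5:**
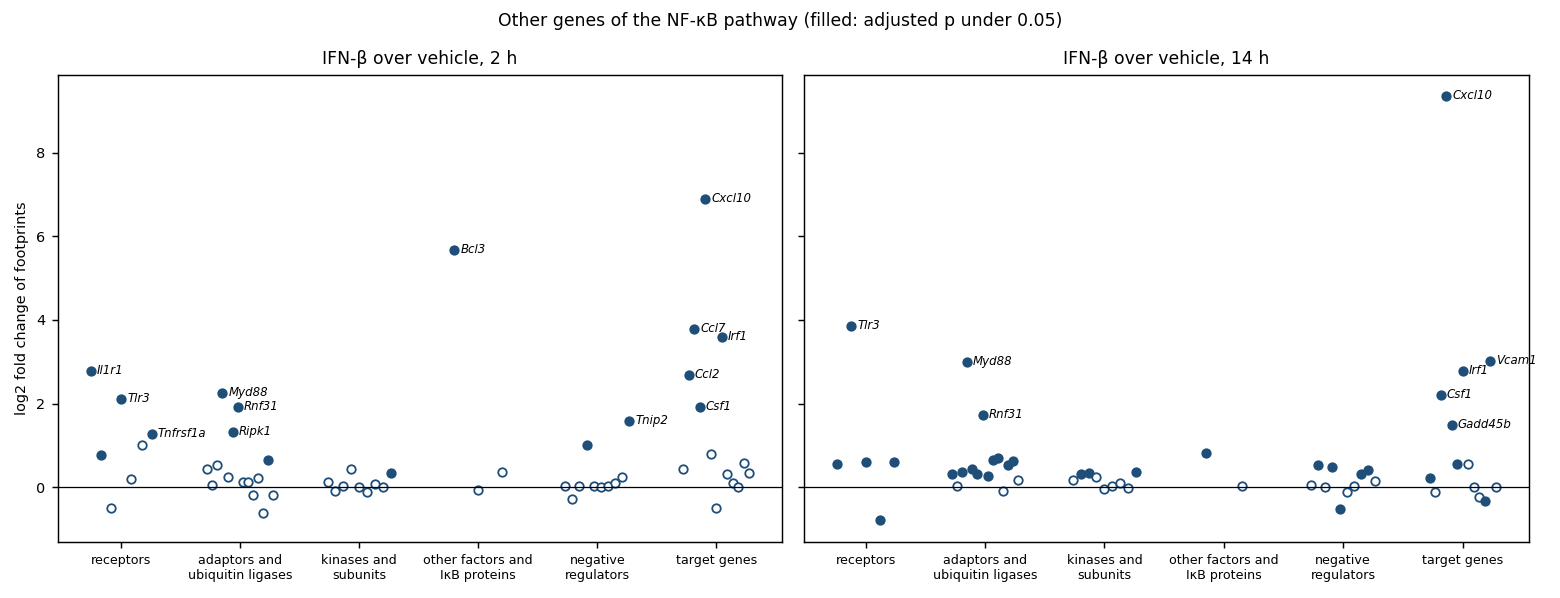
Log2 fold change of footprints at 2 h and 14 h for the genes of the 6 pathway lists that passed the count filter, filled where the adjusted p is under 0.05, with names where a called change exceeds 1.2. Named points include Cxcl10 (6.90 and 9.36) and Tlr3 (2.11 and 3.86) at both times and Bcl3 (5.66) and Tnip2 (1.57) at 2 h, and the list of kinases has no named point.

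Total RNA was too shallow on most of these genes to set beside their footprints. The 10 genes had a median of 12 counts per total RNA library at 2 h and 6 at 14 h, against 169 and 148 footprints. At 2 h 6 of the 10 were tested and none was called, against 0.722% of 11639 genes called higher and 0.0773% lower. At 14 h 3 were tested and none was called, against 3.47% higher and 2.83% lower of 7520 genes. No member passed an unadjusted p of 0.05 at either time in the main edgeR test, and DESeq2 called none. Without vehicle replicate 6 at 2 h, 1 member passed it. Without the vehicle library that stood apart at each time no member was called either, while the genes called fell from 93 to 57 at 2 h and from 474 to 390 at 14 h. For Nfkb1 at 2 h the log2 fold change was 0.44 with an interval from -0.38 to 1.25, which includes the change of its footprints, and for Rela it was -0.01, from -0.91 to 0.90. For Nfkb2 it was -0.03 at 2 h (-0.68 to 0.63, footprints 0.29) and 0.003 at 14 h (-0.505 to 0.51, footprints 0.556). For Nfkbib it was -0.43 at 2 h (-1.05 to 0.20, footprints 0.32) and 0.13 at 14 h (-0.42 to 0.67, footprints 0.21). At 14 h for Nfkb2 and at 2 h for Nfkbib the interval leaves out the footprint value. The difference between RNA and footprints was not tested. The most abundant, Nfkb2 with 54 to 179 counts, overlaps exons of AC114539.1 and Psd on the other strand over 531 and 299 bases, and Nfkbib with 8 to 126 counts those of Ccer2 and Sirt2 over 314 and 42 bases. The strand setting of the counting is not given in the sources used here, so reads of these neighbours cannot be told apart, while no coding base of any of the 10 genes overlaps the coding sequence of another gene. Translational efficiency was not analysed here.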

How the data were processed

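Ribo-Seq and total RNA libraries of vehicle and IFN-β treated NSCs were analysed from tables of unnormalised gene counts deposited by the authors, taken over the CDS for footprints and over the gene body for total RNA. The authors trimmed reads with Trim Galore 0.4.4, mapped them with Bowtie 0.12.7 to the Ensembl mouse transcriptome (mm10), removed duplicates and counted with SummarizeOverlaps. Removal of duplicates without molecular identifiers can lower the counts of strongly translated genes. Samples were grouped by their labels, and all columns were used.

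Genes reaching 10 counts in 4 or more libraries of a comparison were kept and tested over the whole table with the quasi-likelihood test of edgeR 4.0.16 (R 4.3.3, TMM scaling, two-sided), Benjamini-Hochberg adjusted, and called at an adjusted p under 0.05. The comparisons were IFN-β against vehicle at each time in footprints and in total RNA, and the interaction of time and treatment in footprints. Alternatives were DESeq2 1.42.0, other scalings, no filter, a mean of at least 50 counts, the replicate number as a block, and each library left out. The test without the block was run on simulated counts of unpaired libraries. The planted changes were larger than those called for the set in the main test, so smaller changes and the pairing were not covered. Genes named from the pathway lists were those called with a mean of at least 50 footprints per library, at most the 3 largest positive and 2 largest negative changes at each time. The members and lists were chosen with earlier results of these data known.

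Footprint libraries of the same number were taken as pairs under the replicate block and in counts of cultures, while the main test had no block. Deviations from their group means correlated at 0.328 to 0.812 in the 4 pairs at 2 h and at 0.192 to 0.418 at 14 h. In total RNA, by the methods of the study from the same lysates, the correlations were -0.477 to 0.390 and -0.012 to 0.258. No 2 libraries of a group agreed within counting noise. Figures were drawn with matplotlib 3.10.9 in Python 3.11.15.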

Additional observations from a re-analysis of the deposited data

Results flagged for a closer look

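In 4 of 40 groups of 4 libraries, 1 library lay farther from the others than Dixon's 95% limit, which chance passes in about 1 of 20 groups. In the vehicle library of replicate 3 at 2 h these were Nfkbia (72.8 CPM, the others 34.0 to 40.6), Nfkbiz (21.2 CPM, the others 10.6 to 11.4) and Tnip1 (22.5 CPM, the others 18.8 to 19.1). In the IFN-β library of replicate 1 at 14 h, the smallest footprint library with 2956297 counts, Nfkbiz was at 16.4 CPM from 49 counts, the others at 9.33 to 10.3.

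The effect of IFN-β differed between the times, by the interaction of time and treatment, for Nfkb1 (-0.74 on the log2 scale), Rela (-0.54) and Tnip1 (0.57). The set of cultures also differs between the times and cannot be told apart from time here.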

How the results depend on the processing

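Of the log2 fold changes of the 10 genes under all alternatives, 498 kept their direction and side of the threshold, 22 passed it in addition, 2 lost the call and 37 changed sign. No change of sign concerned a called value. The replicate block moved the genes called in footprints at 2 h from 878 to 3538 and the genes of the set from 2 to 7, and for the difference between times from 3867 to 6944 and from 3 to 5. Without both libraries of replicate 3 at 2 h, chosen after seeing the data, the counts at 2 h were 1671 and 4, and the difference of Nfkbia was -0.082. In total RNA at 2 h 93 genes were called, 169 by DESeq2, 174 without a filter and 44 under a stricter filter (a mean of 50 counts). At 14 h there were 474, and 273 by total counts alone and 247 under that filter. The share of calls that were higher at 2 h was 72.3% in footprints, 54.3% with the block and 61.8% without the pair, and in total RNA 90.3%, 79.8% by total counts and 79.3% by DESeq2; at 14 h in total RNA it was 55.1% and 65.9% by total counts. Scaling by total counts moved the median of all genes in total RNA at 2 h from 0.04 to 0.23, and there Nfkb2 was at 0.13, Rela at 0.22 and Nfkbiz at 0.10. In total RNA at 14 h Nfkb2 was at -0.075 under the stricter filter and at -0.008 with the replicate block, which put Tnip1 at -0.18. In total RNA the block gave 63 calls at 2 h, gave 520 at 14 h and called no gene of the set. Libraries of the same number varied together less there than in footprints.

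With 1 library left out at a time, 517 to 953 genes and 2 to 3 of the set were called in footprints at 2 h, 5611 to 6353 and 3 to 5 at 14 h, and 3230 to 4929 and 3 to 4 for the difference. In total RNA these were 30 to 74 genes at 2 h and 171 to 450 at 14 h, with 0 of the set. Ranges that crossed 0 were, in footprints, Tnip1 at 2 h (-0.186 to 0.048), Nfkbiz and Rela at 14 h (-0.201 to 0.014 and -0.015 to 0.086), and the differences of Nfkbia (-0.25 to 0.22), Relb (-0.019 to 0.17) and Tnfaip3 (-0.57 to 0.26). In total RNA they were Nfkb2, Rela and Nfkbiz at 2 h (-0.34 to 0.11, -0.27 to 0.31 and -0.27 to 0.18) and Nfkb2 and Tnip1 at 14 h (-0.15 to 0.15 and -0.21 to 0.39). The cause was not tested, except that fewer libraries or genes enter where a library or filter changed. Depth limits what can be said of Tnfaip3, Birc3 and total RNA, where 1 vehicle library at each time also stood apart.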
